A study of Homo sapiens with 36 samples.

Results

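Divergent promoters, where 2 protein-coding genes lie head to head on opposite strands, were examined in the chromatin immunoprecipitation sequencing (ChIP-seq) peak lists of A549 and BEAS-2B (B2B) cells. A pair was included if both genes are protein-coding in GENCODE release 44, lie on chromosomes 1 to 12 and start at most 1 kb apart. This gave 547 pairs with 1058 genes among 12573 coding gene starts. Because 36 genes belonged to more than 1 pair, the pairs occupied 511 distinct stretches, of which 36 held more than 1 pair. The comparison set was 9599 single-gene promoters, which have no other coding start within 5 kb. A further 311 pairs whose heads overlap were not members, and 1329 coding genes in no pair of either kind had another coding start within 5 kb and entered neither set. Chromosomes 1 to 12 were used because all 16 lists cover them.

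A549 is a human lung adenocarcinoma line and B2B is a non-cancerous line of human bronchial epithelium. The labels give no treatment, and each is an established line of its own, so that line and disease state cannot be told apart. RNA polymerase II (pol II), H3K4me3, H3K27ac, the Mediator subunit Med1 and the AP-1 subunits JunB, Jun and JunD were profiled in both lines, and CTCF and the cohesin subunit Rad21 were analysed in B2B. Each target had 2 replicates that the authors merged before peak calling, so there is no error between replicates and no test between the lines, and all intervals here are 95% intervals for counting error. The number of reads was not given in the sources used here. As a check of the line labels, CDKN2A and CDKN2B, which A549 has lost, had no H3K4me3 or pol II peak in A549 and had both in B2B. The epithelial genes CDH1, EPCAM, KRT8 and KRT18 carried H3K4me3 in both lines. EPCAM, KRT8 and KRT18 also had pol II in both, and CDH1 had pol II in A549 alone. The basal keratins KRT5 and KRT14 and the alveolar surfactant gene SFTPB had no H3K4me3 or pol II peak in either. The basal regulator TP63 had both in A549 and neither in B2B, SFTPC had H3K4me3 in A549 alone, and the lung regulator NKX2-1 had H3K4me3 without pol II in both lines.

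Divergent promoters share a short stretch of DNA from which transcription starts outward in both directions. They are known to be rich in CpG dinucleotides, and many serve genes of housekeeping functions such as DNA repair, mitochondrial function and the core histones. H3K4me3 marks nucleosomes beside active starts, H3K27ac marks active promoters and enhancers, and Mediator passes signals from bound factors to pol II. AP-1 binds the sequence TGA(C/G)TCA and acts at many enhancers.

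The median distance between the starts of a pair was 136 bp, with quartiles of 71.5 and 240.5 bp. The shortest distance was 1 bp at NEK1/CLCN3, which encode a cell-cycle kinase and a chloride/proton exchanger. The longest was 995 bp at PSMB1/TBP, which encode a proteasome subunit and the TATA-binding protein. The starts were at most 100 bp apart in 208 pairs, over 100 and up to 300 bp apart in 239, and farther apart in 100. The next pairs outside the limit were TXNDC12/BTF3L4, with starts 1008 bp apart, and ENSG00000288654/ZNF654, at 1039 bp.

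The following stretches are from the plus strand of hg38, read from the start of the minus-strand gene toward that of the plus-strand gene. The first shows the AP-1 motif (capitals) and its surroundings in a pair with this motif and a Jun summit between the starts in both lines.
PMEL/RAB5B, chr12:55973679-55973805: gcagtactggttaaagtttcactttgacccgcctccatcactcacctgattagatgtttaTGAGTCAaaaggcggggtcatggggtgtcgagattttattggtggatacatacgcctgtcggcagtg
The next set gives the whole stretch between the starts of a textbook pair, a pair marked in A549 only, a pair bound by JunB in B2B and 2 pairs of histone genes marked in B2B only. Capitals mark the CCAAT box of NF-Y, on either strand, and the NRF1 motif.
PPAT/PAICS, chr4:56435616-56435740: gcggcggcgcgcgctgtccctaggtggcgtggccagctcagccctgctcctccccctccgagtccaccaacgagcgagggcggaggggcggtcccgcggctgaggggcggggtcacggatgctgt
COL4A4/COL4A3, chr2:227164454-227164623: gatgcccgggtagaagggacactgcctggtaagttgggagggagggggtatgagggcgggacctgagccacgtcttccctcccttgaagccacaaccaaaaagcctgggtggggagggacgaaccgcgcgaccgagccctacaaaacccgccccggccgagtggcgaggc
CHCHD4/TMEM43, chr3:14124871-14125014: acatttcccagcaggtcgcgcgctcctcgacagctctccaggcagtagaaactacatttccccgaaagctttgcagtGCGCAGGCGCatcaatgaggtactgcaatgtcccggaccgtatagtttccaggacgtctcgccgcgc
H2AC7/H2BC7, chr6:26199294-26199515: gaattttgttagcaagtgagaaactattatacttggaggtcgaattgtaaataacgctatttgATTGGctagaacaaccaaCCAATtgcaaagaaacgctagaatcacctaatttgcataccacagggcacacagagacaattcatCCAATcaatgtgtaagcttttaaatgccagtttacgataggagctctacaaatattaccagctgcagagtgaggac
H2BC8/H2AC8, chr6:26216689-26216920: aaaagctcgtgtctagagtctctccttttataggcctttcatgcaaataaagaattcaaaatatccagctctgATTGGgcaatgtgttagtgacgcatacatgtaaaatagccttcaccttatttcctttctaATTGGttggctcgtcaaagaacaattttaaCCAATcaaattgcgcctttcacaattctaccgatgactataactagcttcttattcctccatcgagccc
PPAT/PAICS, both of purine synthesis, and COL4A4/COL4A3, which encode basement-membrane collagen chains, held neither motif, nor AP-1, CRE or ETS letters. CHCHD4/TMEM43 held an NRF1 match. H2AC7/H2BC7 and H2BC8/H2AC8 each held 3 CCAAT boxes, written ATTGG where they lie on the other strand.

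Over 300 bp centred between the starts, pairs had a median GC content of 64.3% (quartiles 58 and 70.2%). The value was 58.7% in single-gene promoters, taken from 250 bp before to 50 bp after the start. The median CpG ratio, observed over expected, was 0.88 in pairs and 0.647 in single-gene promoters. A GC content above 50% with a CpG ratio above 0.6 was found in 474 of 547 pairs (86.7%) and in 50.5% of single-gene promoters. Among single-gene promoters with H3K4me3 in either line it was found in 74.8%.

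The ETS motif CCGGAAGT was read on both strands like the other motifs, in the same 300 bp windows. In most pairs the window holds both starts, while that of a single-gene promoter holds only its own. All coding promoters include the genes of pairs. The ETS motif was present in 89 pairs (16.3%, 13.4 to 19.6%) and in 3.57% of single-gene promoters. It was in 5.54% of single-gene promoters with H3K4me3 in either line and in 4.79% of all coding promoters. The NRF1 motif was present in 14.8% of pairs, in 8.38% of H3K4me3-marked single-gene promoters and in 6.36% of all coding promoters. GGGCGG, the SP1 box, was present in 71.8% of pairs, 66.5% of marked single-gene promoters and 50.6% of all. The box CCAAT was found in 40.4% of pairs and 35.8% of all coding promoters. TATAAA was present in 5.85% of pairs, 7.37% of marked single-gene promoters and 11.6% of all. The AP-1 motif was rare, with 9 pairs (1.65%), 3.23% of marked single-gene promoters and 4.26% of all coding promoters. The cAMP response element TGACGTCA (CRE), which Jun proteins also bind as heterodimers, was present in 19 pairs (3.47%, 2.24 to 5.36%). It was in 2.96% of marked single-gene promoters and in 2.24% of all.

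Most divergent promoters carried the marks of active promoters in both lines. A peak within 1 kb of either start counted, and the share of single-gene promoters scored the same way is given beside each. In A549, 520 of 547 pairs carried pol II (95.1%, against 54.6% of single-gene promoters), 531 H3K4me3 (97.1% against 61.4%), 529 H3K27ac (96.7% against 59.7%) and 450 Med1 (82.3% against 41.1%). In B2B the counts were 461 for pol II (84.3% against 37.4%), 509 for H3K4me3 (93.1% against 49.4%), 505 for H3K27ac (92.3% against 49.8%) and 498 for Med1 (91.0% against 46.5%). Every one of these 8 differences had an interval above 0, and they ranged from 35.7 percentage points for H3K4me3 in A549 (33.7 to 37.2) to 46.9 for pol II in B2B (43.5 to 49.9).

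The Jun-family proteins were found at fewer pairs. In A549, JunB was called at 192 pairs (35.1% against 18.8%), Jun at 242 (44.2% against 22.4%) and JunD at 105 (19.2% against 11.4%). In B2B, Jun was called at 65 pairs (11.9% against 7.91%) and JunB at 8 (1.46% against 0.948%). JunD was called at 0 of 547 pairs in B2B, which allows a share of up to 0.548%, against 0.323% of single-gene promoters. The differences between pairs and single-gene promoters were 0.51 percentage points for JunB in B2B (-0.24 to 1.92) and -0.32 for JunD in B2B (-0.46 to 0.38), so that neither was larger than counting error. CTCF was called at 236 pairs (43.1% against 24.5%) and Rad21 at 462 (84.5% against 52.7%).

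**Figure D1:**
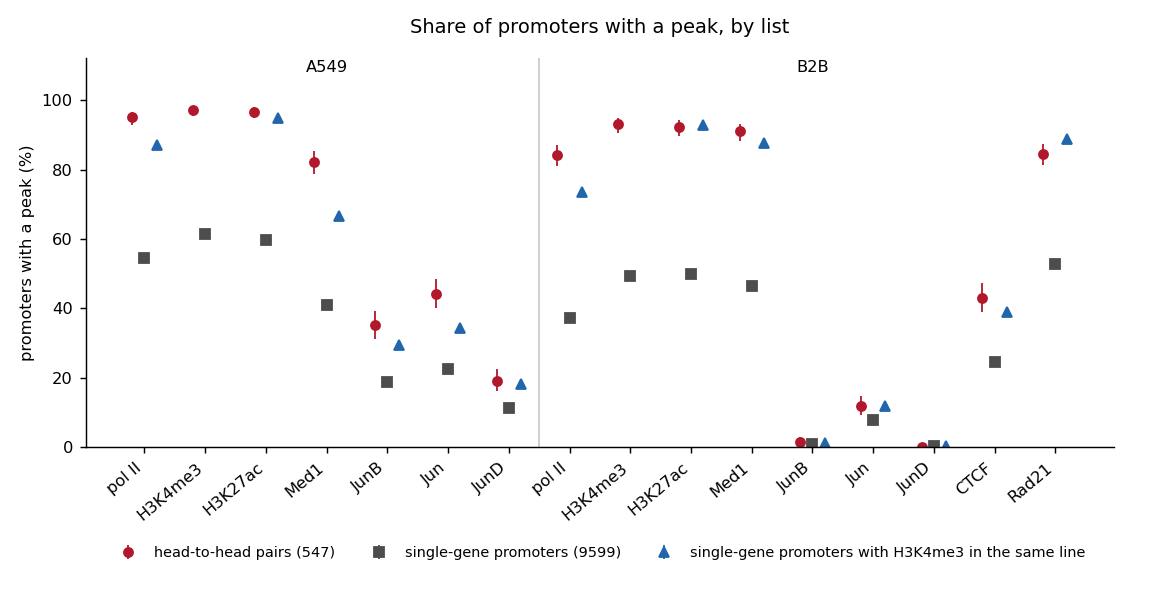
Share of promoters with a peak in each of the 16 lists (percent, y axis) for the 547 pairs, the 9599 single-gene promoters and the single-gene promoters with H3K4me3 in the same line. Bars are 95% Wilson intervals. Pairs lie above all single-gene promoters in every list except B2B JunD. All 547 pairs, with H3K4me3 or not, lie close to the marked single-gene promoters for A549 JunD and for H3K27ac, JunB and Jun in B2B. For B2B Rad21 all pairs lie below them, at 84.5% against 88.9%. Among pairs with H3K4me3 in B2B the Rad21 share is 87.4%, a difference of -1.47 points (-4.75 to 1.29). The H3K27ac share of these pairs is 98.4%, against 92.9%.

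The differences between the sets were smaller among promoters with H3K4me3. Among promoters with H3K4me3 in A549, Jun was called at 45.6% of 531 pairs and 34.5% of 5893 single-gene promoters, a difference of 11.1 percentage points (6.75 to 15.5). JunB differed by 6.8 points (2.66 to 11.1) and Med1 by 18.1 (14.6 to 21.2). JunD in A549 differed by 1.43 points (-1.89 to 5.16). Among promoters with H3K4me3 in B2B, Jun differed by 0.71 points (-2.06 to 4.0) and Rad21 by -1.47 (-4.75 to 1.29), while pol II differed by 16.9 (13.8 to 19.5) and CTCF by 5.73 (1.24 to 10.3). Single-gene promoters with a non-coding start upstream on the other strand were compared with the others among those with H3K4me3 in A549. Of 831 such promoters 42.2% had Jun, and of the 5062 others 33.2%. For JunD the shares were 23.6% and 17.5%, against 19.8% of pairs. For CTCF, among those with H3K4me3 in B2B, they were 38.8% and 39.1%, against 44.8% of pairs.

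A pair had a peak in a median of 10 of the 16 lists (quartiles 9 and 11), against a median of 5 for single-gene promoters. No pair had all 16 (0.0417% of single-gene promoters did), because no pair had JunD in B2B. The count of 15 was reached only at the stretch shared by LPXN/ZFP91 and LPXN/ZFP91-CNTF, named after its values were seen. LPXN is a focal-adhesion adaptor and ZFP91 a zinc-finger protein. There the deposited fold of Jun was 18.4 in A549 and 4.21 in B2B, and that of JunB was 26.9 and 4.76. These folds are over different local backgrounds, given below, and do not measure a difference between the lines.

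At 9 pairs no list had a peak, against 30.8% of single-gene promoters. In genome order, they began with DCST2/DCST1, of sperm-egg fusion, MORC1/C3orf85, of which MORC1 acts in germ cells, and ZDHHC19/SLC51A, of which SLC51A is a bile acid transporter subunit. GABRA4/GABRB1, which encode subunits of the GABA-A receptor, and H2AC1/H2BC1, which encode testis histones, came next. MS4A6A/MS4A4A, 991 bp apart and known from myeloid cells, also had none.

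The position of the called peaks differed between the lines. The H3K4me3, H3K27ac and pol II lists of the lines were called over different local backgrounds, given below. The part of these backgrounds in the layout was not tested. In A549, a single H3K4me3 peak covered both starts at 465 of 531 pairs (87.6%), and the widest peak at a pair had a median width of 2701 bp. In B2B this was so at 67 of 509 pairs (13.2%), the median width was 1322 bp, and 81.5% of pairs with a peak had at least 2. The middle between the starts was covered by H3K4me3 at 88.1% of pairs in A549 and 19.0% in B2B. At 500 bp into the minus-strand gene the shares were 93.8% and 82.1%, and into the plus-strand gene 92.9% and 80.6%. H3K27ac covered the middle at 87.0% of pairs in A549 and 41.5% in B2B, and pol II at 90.1% and 58.7%. Med1 covered it at 68.6% in A549 and 77.7% in B2B. The starts of single-gene promoters with H3K4me3 in the same line gave a like contrast between the lines, with H3K4me3 at 92.7% in A549 and 27.4% in B2B. H3K27ac covered these starts at 84.2% and 62.1%, pol II at 79.0% and 58.5%, and Med1 at 52.9% and 70.5%.

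The strongest H3K4me3 peak had its summit between the starts at only 2.26% of pairs in A549 and 1.77% in B2B, with the rest split between the sides. In A549, 265 summits lay on the side of the minus-strand gene and 254 on the other. At single-gene promoters the summit lay downstream of the start at 85.9% in A549 and 76.1% in B2B. H3K4me3 reached into both genes at 97.2% of pairs with a peak in A549. It lay on both sides of the start at 93.35% of single-gene promoters with a peak. Of the pairs with a peak of the factor in A549, the strongest peak had its summit between the starts at 109 of 242 for Jun (45%), 42.9% for JunD, 38% for Med1 and 25% for JunB. In B2B the shares were 28.5% for Med1 and 21.5% for Jun.

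**Figure D2:**
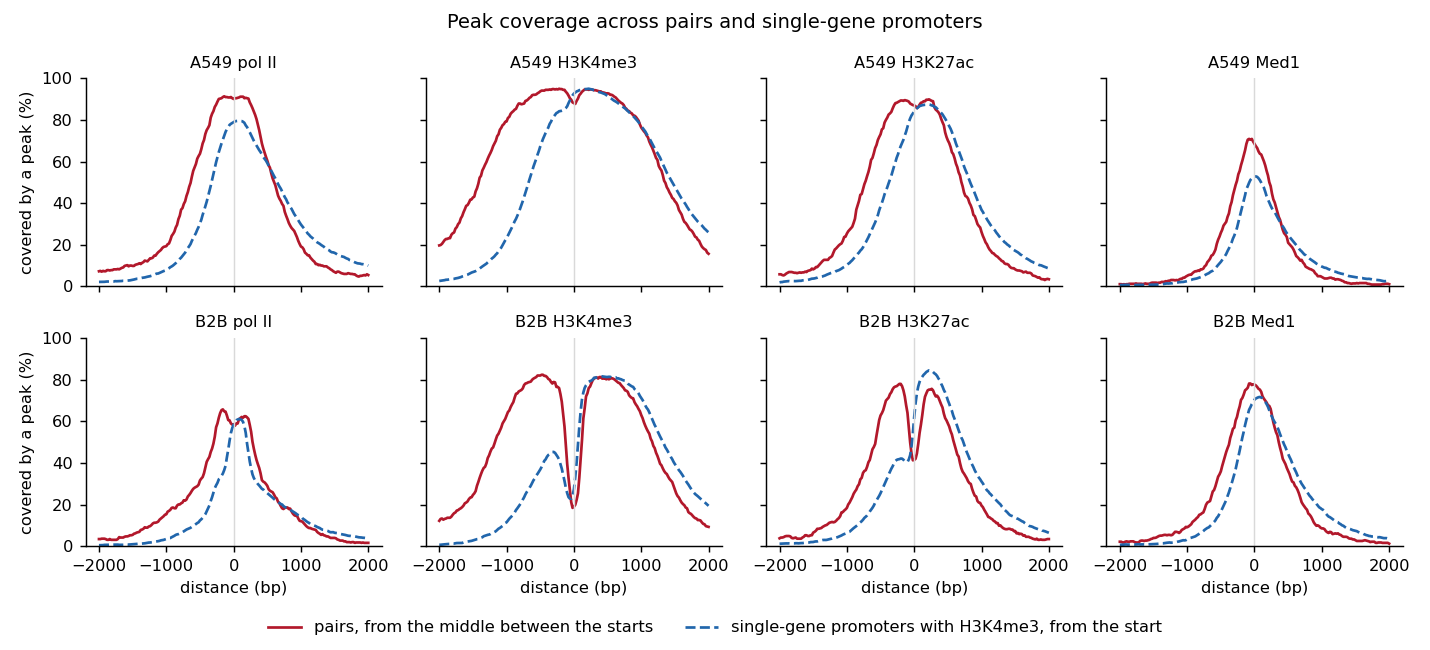
Percent of the 547 pairs covered by a peak (y axis) against the distance in bp from the middle between the starts (x axis, minus-strand gene to the left), for 4 targets in each line. Dashed lines show single-gene promoters with H3K4me3 in the same line, from the start, with the gene to the right. H3K4me3 in B2B drops to 19.0% of pairs at the middle, and in A549 it stays at 88.1%.

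The lists of B2B were called over a different local background at these promoters. The fold of a peak is its pileup over the background that the caller estimated near it, and both were solved from the deposited fold and p-value. The solved pileup came out within 0.1 of a whole number of fragments at all 531 H3K4me3 pairs in A549 and all 509 in B2B. At pairs, the median background was 3.68 fragments for H3K4me3 in A549 (quartiles 3.0 and 4.72) and 23.9 in B2B (14.6 and 38.1). For pol II it was 2.36 and 25.5, for H3K27ac 2.34 and 23, and for Jun 1.61 and 5.65. Med1 had 1.98 in A549 and 2.19 in B2B, and is the target with more pairs called in B2B. CTCF had 15.4 and Rad21 16.5. Relative to peaks of the same list over 1 kb from any coding start, the background at pairs was 8.47 times as high for pol II in B2B and 1.01 times in A549. For Rad21 it was 10.2 times and for Jun in B2B 4.59 times. The part of this background in the differences between the lines, in numbers of pairs and in layout, was not tested. Where folds of both lines are printed for a pair, each is over the background of its own list. They do not measure a difference between the lines.

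**Figure D3:**
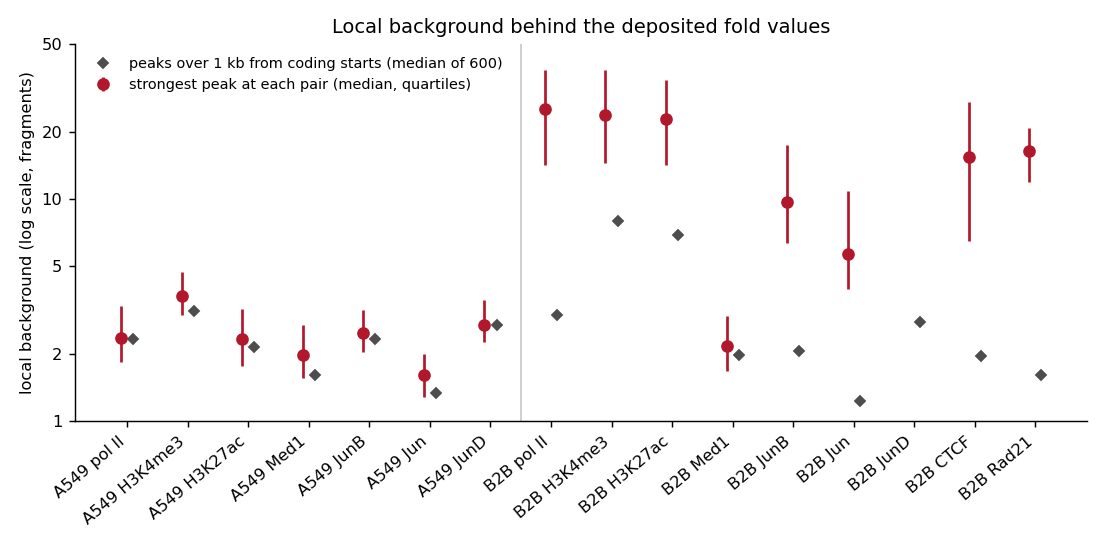
Median local background (fragments, log scale) of the strongest peak at each pair, with quartiles, and of 600 sampled peaks over 1 kb from coding starts, in each list. The 7 A549 lists and B2B Med1 lie between 1.61 and 3.68 at pairs, and the other B2B lists with peaks at pairs lie between 5.65 and 25.5.

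Between the lines, pol II was called at 458 pairs in both, at 62 in A549 only (11.3%, against 18.4% of single-gene promoters) and at 3 in B2B only (against 1.21%). H3K4me3 was in both at 505, in A549 only at 26 (13.2% of single-gene promoters) and in B2B only at 4 (1.24%). For H3K27ac, 501 pairs had it in both, 28 in A549 only (11.7% of single-gene promoters) and 4 in B2B only (1.81%). Med1 went the other way, with 13 pairs in A549 only (3.7% of single-gene promoters) and 61 in B2B only (9.14%). The share in A549 minus the share in B2B was 10.8 percentage points for pol II (8.12 to 13.7), 4.02 for H3K4me3 (2.11 to 6.21), 4.39 for H3K27ac (2.42 to 6.63) and -8.78 for Med1 (-11.9 to -5.8), in intervals paired over the pairs. With the summit required in the window, H3K4me3 differed by 1.46 points.

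The Jun family showed larger differences. JunB was called at 185 pairs in A549 only (33.8%, against 18.1% of single-gene promoters), at 1 in B2B only (0.229%) and at 7 in both. Jun was called at 192 in A549 only (35.1% against 16.6%), at 15 in B2B only (2.04% of single-gene promoters) and at 50 in both. JunD was called at 105 pairs in A549 only (against 11.3%) and at 0 in B2B only (0.229%). The difference in shares was 33.6 percentage points for JunB (29.7 to 37.7), 32.4 for Jun (27.9 to 36.7) and 19.2 for JunD (16 to 22.7). For JunB it was 3.47 points when the A549 list was cut to the length of the B2B list by p-value (19926 peaks to 6318). The cause was not tested.

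**Figure D4:**
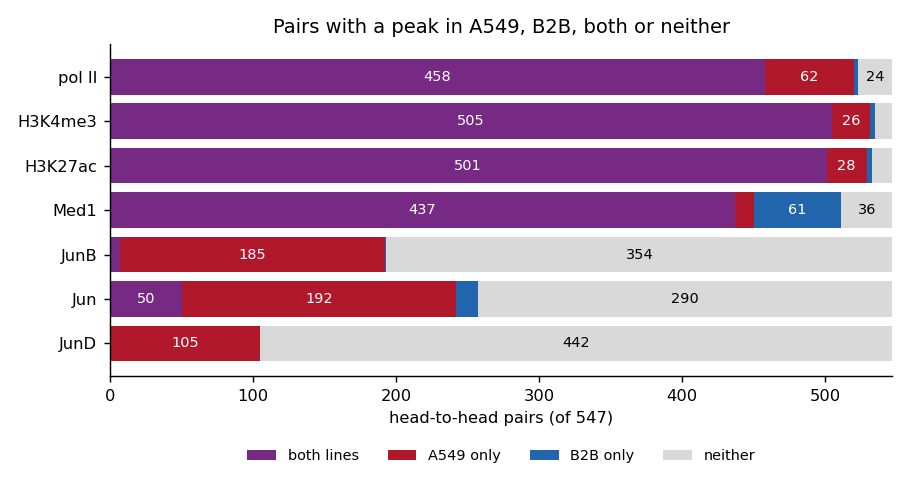
Number of the 547 pairs (x axis) with a peak in both lines, in A549 only, in B2B only or in neither, for the 7 targets profiled in both. H3K4me3 was shared at 505 pairs, and JunD was called in A549 only, at 105.

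At 18 pairs (3.29%, 2.09 to 5.14%) H3K4me3 and pol II were both called in A549 and neither in B2B, against 6.75% of single-gene promoters. The highest H3K4me3 folds among them were 50.3 at PSMA1/PDE3B, a proteasome subunit and a phosphodiesterase, 39.9 at PAQR9/U2SURP, a membrane receptor and a splicing factor, and 38.9 at COL4A4/COL4A3. At PSMA1/PDE3B the A549 lists also had pol II at a fold of 98.4 and JunB at 5.9, and the B2B lists had only Rad21, at 3.03. Each gene was scored only at the outer end of its annotated record. Starts of these genes elsewhere were not scored, so the genes may be marked there in B2B. The reverse was found at 3 pairs (0.548%, against 0.552% of single-gene promoters) on 2 stretches, each with a histone gene. H2BC8/H2AC8 had pol II at a fold of 45 in B2B and H3K4me3 at 10.5. H2AC7/H2BC7, whose minus-strand start is shared with another annotated gene, had pol II at 13.8 and an H3K4me3 peak of 4565 bp, the widest at any pair in B2B. Of the 15 pairs with a histone gene, 11 had H3K4me3 in A549 and 14 in B2B, against 531 and 509 of all 547 pairs.

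In A549, 293 pairs (53.6%) had at least 1 Jun-family protein, against 28.0% of single-gene promoters, and 70 (12.8%) had all 3, against 7.81%. Jun alone was called at 75 pairs, JunB alone at 31 and JunD alone at 11. In B2B, 65 pairs (11.9%) had a member, against 7.95% of single-gene promoters. Of these 65, 57 had Jun alone and 8 had Jun and JunB. Shares of single-gene promoters with only some of the proteins were not computed for either line. Pairs with Jun in A549 had Med1 at 239 of 242 (98.8%), and the other pairs at 211 of 305 (69.2%). Pairs with Jun in B2B had CTCF at 42 of 65 (64.6%, 52.5 to 75.1%), and the other pairs at 194 of 482 (40.2%, 36.0 to 44.7%). Rad21 was called at 205 of 236 CTCF pairs (86.9%) and at 257 of 311 others (82.6%), while by pol II it was at 89.2% of pairs with it and 59.3% of pairs without.

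The highest summed Jun-family fold in A549 was at ENSG00000285133/MBD6, with JunB at 25.2, Jun at 53.2 and JunD at 13. MBD6 belongs to the methyl-CpG-binding family. HES4/ISG15, which encode a Hes-family repressor and an interferon-induced ubiquitin-like protein, followed with 17.2, 44.3 and 11.6. C1orf232/ZNF593 had 10.8, 37.6 and 7.79. In the latter pairs the starts were 966 and 945 bp apart, against 230 bp in the former. In B2B no pair had all 3 proteins, which allows a share of up to 0.548%, against 0.271% of single-gene promoters.

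AP-1 letters were rare at the summits of Jun-family peaks at pairs in A549. Within 50 bp of the summit the motif was present at 9.02% of 266 Jun peaks at pairs (6.14 to 13.1%), 16.7% of 2475 at single-gene promoters and 46.2% of 21768 over 1 kb from coding starts. For JunB the shares were 11.8%, 18.8% and 50.4%, and for JunD 3.77%, 10.2% and 43.3%. In B2B, 19 of 64 Jun peaks at pairs (29.7%, 19.9 to 41.8%) had it, against 33.7% at single-gene promoters and 39.6% elsewhere. For JunB in B2B it was 6 of 7 peaks at pairs, 68.8% at single-gene promoters and 52.4% elsewhere. CRE letters were at 6.39% of Jun peaks at pairs, 6.51% at single-gene promoters and 0.841% of those elsewhere in A549. Of the 19 pairs with CRE in the 300 bp, 15 had Jun in A549 (78.9%, 56.7 to 91.5%), against 227 of 528 pairs without it (43.0%, 38.8 to 47.2%). For JunB in A549 the shares were 47.4% (27.3 to 68.3%) and 34.7%, and for JunD 21.1% and 19.1%, with overlapping intervals. Of the 9 pairs with AP-1 letters in the 300 bp, 3 had Jun in A549 (33.3%, 12.1 to 64.6%), against 44.4% of the pairs without them. In B2B, Jun was at 4 of these 9 (44.4%, 18.9 to 73.3%), against 11.3% of the other pairs, and at 3 of the 19 with CRE.

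**Figure D5:**
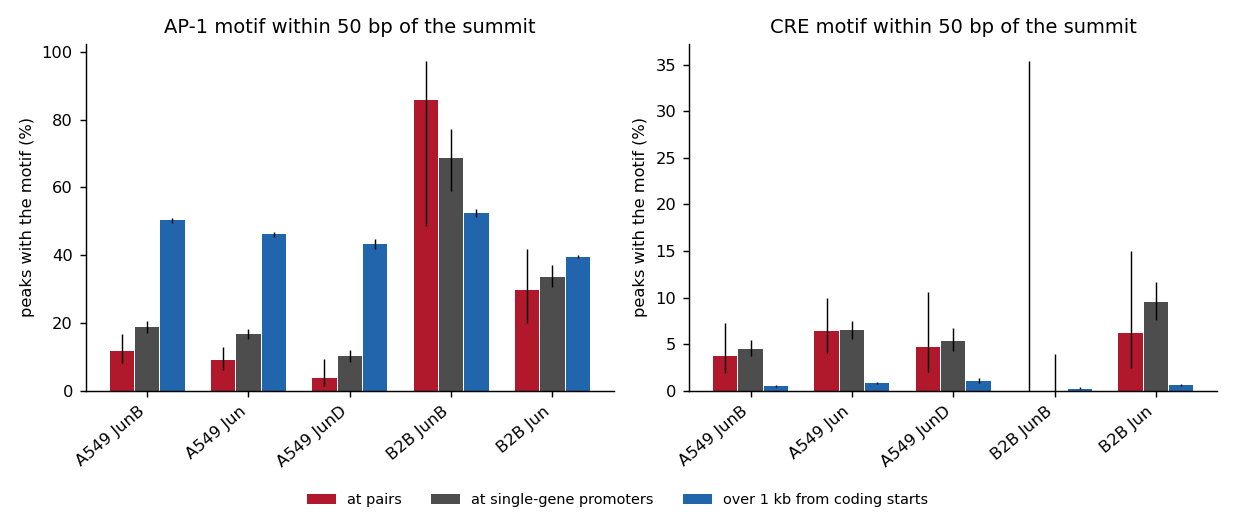
Percent of Jun-family peaks with AP-1 (left) or CRE letters (right) within 50 bp of the summit, at pairs, at single-gene promoters and over 1 kb from coding starts, with 95% Wilson intervals. AP-1 is at 9.02% of A549 Jun peaks at pairs and at 46.2% of those elsewhere. B2B JunB has 7 peaks at pairs, and the lists differ in length.

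AP-1 letters between the starts were found in 10 pairs, of which 5 had Jun in A549, where 44.2% of all pairs did, and 6 in B2B, where 11.9% did. At PMEL/RAB5B, which encode a melanosome protein and an endosomal GTPase, the motif printed above lies 422 bp from the minus-strand start. The Jun summit lay 51 bp past the motif in A549 and 61 bp past it in B2B, at folds of 23.1 and 5.35.

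CTCF was called more often at pairs with more distant starts. In windows of fixed width, 1 kb to each side of the middle, its share was 32.2% of pairs with starts at most 100 bp apart (26.2 to 38.8%), 45.6% at over 100 and up to 300 bp (39.4 to 51.9%) and 52% above that (42.3 to 61.5%). For Jun in A549 the shares were 39.4%, 46.4% and 46%, with overlapping intervals. Pol II in B2B was called at 86.5% of the closest and 75% of the farthest pairs (65.7 to 82.4%). CTCF peaks reached folds of 47.1 at NEK1/CLCN3 and 47.8 at ATP6V1G2-DDX39B/NFKBIL1, the highest at any pair.

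Among textbook pairs, HARS1/HARS2 and SURF1/SURF2 had overlapping heads and were not members. In HSPD1/HSPE1, TAP1/PSMB9 and ABCG5/ABCG8 the starts also lay in the overlapping order in this annotation, and more than 1 kb apart. The plus-strand start minus the minus-strand start was -16597, -9680 and -6923 bp. PPAT/PAICS, NPAT/ATM, PDCD10/SERPINI1, PRKDC/MCM4 and TMEM258/FEN1 carried pol II, H3K4me3, H3K27ac and Med1 in both lines. COL4A4/COL4A3 had them all in A549 but only Med1, at a fold of 4.81, in B2B. At NPAT/ATM, a regulator of histone transcription and a DNA-damage kinase, no Jun-family peak was called in either line. PRKDC/MCM4, a DNA-repair kinase and a helicase subunit whose starts are 7 bp apart, had all 3 Jun-family proteins in A549 at 4.38 to 7.26 and none in B2B.

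H3K4me3 was in both lines at 505 of all 547 pairs. It was in both at all 11 pairs with a mitochondrial ribosome gene, all 13 respiratory chain pairs and all 9 DNA repair pairs. Jun-family proteins were called in A549 at 6, 5 and 5 of these, against 293 of all 547 pairs. At the 15 pairs with a zinc-finger gene the count was 13, with JunB at 10, Jun at 12 and JunD at 9. These 15 include 2 pairs of LPXN on 1 stretch and 2 of ZNF891. The mitochondrial ribosome pairs include 2 of MRPL47 and 2 of MRPL32. In B2B, 2 of the 15 zinc-finger pairs had a Jun-family protein, against 65 of all 547 pairs. The 6 DNA replication, 4 proteasome and 7 cytosolic ribosome pairs had 3, 2 and 3 in A549, and no pair held a gene of the antigen presentation list. Of the 7 pairs with a solute carrier gene, 6 had H3K4me3 and pol II in A549, while 5 had H3K4me3 and 4 had pol II in B2B. The 15 histone pairs, which include 2 of H2BC7 and 2 of H2BC17, had a Jun-family protein at 6 in A549 and at 5 in B2B. Over all 547 pairs the counts were 293 and 65.

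The widest H3K4me3 peaks in A549 were 8517 bp at RHOF/SETD1B, of which SETD1B is an H3K4 methyltransferase, 7307 bp at KLLN/ENSG00000289051 and 7242 bp at SBF2/ADM. ADM encodes adrenomedullin, and its pair had 14 lists with a peak, with Jun at 21.6 in A549 and 5.6 in B2B. At FAU/MRPL49, both of ribosomes, with starts 6 bp apart, the H3K4me3 peak was 2654 bp wide in A549 and the widest was 882 bp in B2B.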

How the data were processed

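ChIP-seq peak lists of 7 targets in A549 and 9 in B2B were analysed. Per the methods and the submitters' processing notes, the authors aligned reads to hg38 with Bowtie2 2.4.4, took out duplicate reads with custom code, pooled the replicates, normalised with SAMtools 1.13 and called peaks with MACS2 2.2.7.1. Options and control of the caller were not given in the sources used here, and the depth is unknown. The deposited fold is a ratio of pileup to local background at the summit. For each peak the authors also deposited a −log10 p-value and a −log10 q-value.

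Gene starts were the outer ends of the gene records of GENCODE release 44, and alternative starts were not used. Sequence came from the hg38 reference, past whose chromosome ends no peak reached. A peak counted if it overlapped by at least 1 bp the window from 1000 bp outside a start to 1000 bp outside the other. Shares have Wilson 95% intervals, differences have Newcombe intervals (paired between lines), and no test was run. A count of 0 allows a share of 3 over the total. Pileup and background were solved from fold, taken as (pileup + 1) over (background + 1), and the Poisson p-value, keeping of 2 solutions the one with the pileup nearer a whole number. Overlaps, intervals, motifs and this solution were tested on simulated data. Python 3.11.15, NumPy 2.4.6, SciPy 1.17.1 and matplotlib 3.10.9 were used.

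Pairs, motifs and gene lists were chosen with earlier results of these data known. Named are the textbook pairs, and by value the pairs with the highest summed Jun-family fold, the highest H3K4me3 fold in 1 line only, no peaks, AP-1 letters with Jun summits in both lines, the extreme distances and the widest H3K4me3 peaks. The alternatives were a window of 500 bp, a −log10 q of at least 5, the summit in the window, pairs with overlapping heads, each gene at its own start and lists of equal length. Using 1 pair per stretch was added after the data were seen. Values of some pairs that the naming rule covers are not reported here.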

Additional observations from a re-analysis of the deposited data

Results flagged for a closer look

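The difference of JunD between pairs and single-gene promoters had opposite signs in the lines, and the value in B2B was within counting error. The share at pairs minus that at single-gene promoters was 7.79 percentage points in A549 and -0.32 in B2B, with an interval from -0.46 to 0.38. The difference between the lines was not tested.

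Pairs on chromosomes 13 to 22 and X were left out of the comparisons because 4 lists end before X. In the 12 complete lists, 340 such pairs could be scored, and 10 lists had peaks at more of them than a count of 0 allows (0.882%). Below that limit were JunB in B2B, at 2 of the 340 pairs, and JunD in B2B, at 1. Their shares at single-gene promoters there were 0.522% and 0.205%. In A549, H3K4me3 was at 90.0% of these pairs, JunB at 27.1%, Jun at 43.8% and JunD at 20.3%, against 59.97%, 16.7%, 20.5% and 11.3% of 5369 single-gene promoters there. In B2B, pol II was at 72.6%, H3K4me3 at 89.1%, H3K27ac at 89.4%, Jun at 8.82%, CTCF at 37.1% and Rad21 at 79.1%, against 36.4%, 48.1%, 51.5%, 6.15%, 22.03% and 51.5% of single-gene promoters.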

How the results depend on the processing

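Of the 138 recomputed values, 130 stayed inside the 95% interval of the reported value, 8 moved out of it and none changed direction. With only peaks of a −log10 q of at least 5, pairs exceeded single-gene promoters by 12.2 percentage points for JunB and 17.6 for Jun in A549, and A549 exceeded B2B by 27.4 for JunB, 27.1 for Jun and 14.1 for JunD. With the summit in the window, A549 H3K27ac differed from single-gene promoters by 38.9 points, and H3K4me3 differed between the lines by 1.46 (-0.87 to 3.86). With lists of equal length, JunB differed between the lines by 3.47 points. The cause was not tested. No value moved with the 500 bp window, with overlapping pairs added, with each gene at its own start or with 1 pair per stretch, of which there were 511. No paired analysis was possible because the replicates were merged before peaks were called. Without lists per replicate, no replicate could be left out either.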
